A study of Arabidopsis thaliana with 6 samples.

Results

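The genes described are those that the plastid genome of Arabidopsis thaliana keeps for its own gene expression and upkeep: the rpo genes of the plastid RNA polymerase, the rpl and rps genes of the plastid ribosome, and a mixed group (matK, clpP, accD, ycf3, ycf4, cemA and ccsA). They were taken as the plastid-encoded genes with a row of values that the array's annotation ties to exactly 1 gene. Left out were rbcL and the genes of the photosystems, the cytochrome complex, the ATP synthase and the NDH complex. This gave 24 genes of 16548 tested: 4 rpo, 6 rpl, 7 rps and 7 others. RefSeq lists 34 different symbols of this kind in the plastid genome. The 4 rpo genes are complete, while 6 of 9 rpl and 7 of 12 rps symbols are covered. Where a gene had several rows the brightest was to be used, but no gene of the 24 had more than 1, so although rows were to be chosen by their mean level, no measured value decided a member.

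The roots came from Col-0 wild-type plants, 8 weeks old, grown hydroponically at 22 °C in short days in a nutrient solution with chloride in place of sulfate. One group received 150 µM sodium thiosulfate and the other 300 µM sodium sulfate, each measured on 3 arrays that the titles call biological replicates. As thiosulfate carries a pair of sulfur atoms per ion, both groups were given equal sulfur. The arrays were 1-colour Affymetrix arrays of total RNA, and the deposited values are log2 expression per transcript cluster. Nothing says that the replicates were separate cultures, and p-values then cover only the spread among these arrays, which may be technical.

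Plastids descend from cyanobacteria and keep a small genome that is transcribed by a bacterial-type polymerase, whose core is encoded by rpoA, rpoB, rpoC1 and rpoC2, and by a phage-type polymerase encoded in the nucleus. The nuclear polymerase is the main one for the rpoB cluster and for accD, whereas most photosynthesis genes depend on the bacterial type. Plastid ribosomes are assembled from plastid-encoded and nucleus-encoded proteins together, and many plastid genes are transcribed as joint precursors with their neighbours. Roots hold mostly non-green plastids, which still make fatty acids and amino acids and assimilate sulfate.

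Of the 24 genes, 23 had a higher mean in thiosulfate than in sulfate, against 47.1% of all genes tested. The differences were small: the median was 0.20 on the log2 scale, or 1.15-fold, and the median over all genes tested was -0.016. The quartiles of the 24 differences lay at 0.15 and 0.29, and the range was -0.28 to 0.35. None of the 24 passed an adjusted p of 0.05 in limma, a linear model with variances shared across genes; 0.0121% of all genes tested did (2 genes). The smallest adjusted p among the 24 was 0.48. At an unadjusted p under 0.05, 1 of the 24 passed (rpl33, higher), or 4.17%, beside 10.0% of all genes in both directions, 5.39% higher and 4.64% lower. The 95% intervals of all 24 excluded a 2-fold difference in either direction, as did those of 92.7% of all genes tested.

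The thiosulfate and sulfate arrays did not overlap for 11 of the 24 genes, against 14.7% of all genes. For 10 of these thiosulfate was higher (rpoB, rpl33, rpl36, rpl14, rpl16, rps19, accD, ycf3, clpP and ccsA), a separation that 7.11% of all genes showed, and for rpl32 it was lower, as for 7.57% of all genes. Of 1887 genes not encoded in the plastid and with means within the range of the 24, 210 (11.1%) separated with thiosulfate higher and 166 with it lower. They were dimmer as a set, with array medians from 6.26 to 6.41 against 8.96 to 9.25 for the 24 genes. Of the 39 plastid-encoded photosynthesis and NDH genes, 20 (51.3%) separated with thiosulfate higher and 0 with it lower, so the separation was not particular to the 24. The 24 genes are not independent of each other, since they share RNA extracts and partly transcripts. In root RNA, a change in the number of plastid-bearing cells of a type and a change in transcript per cell cannot be told apart.

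**Figure D1:**
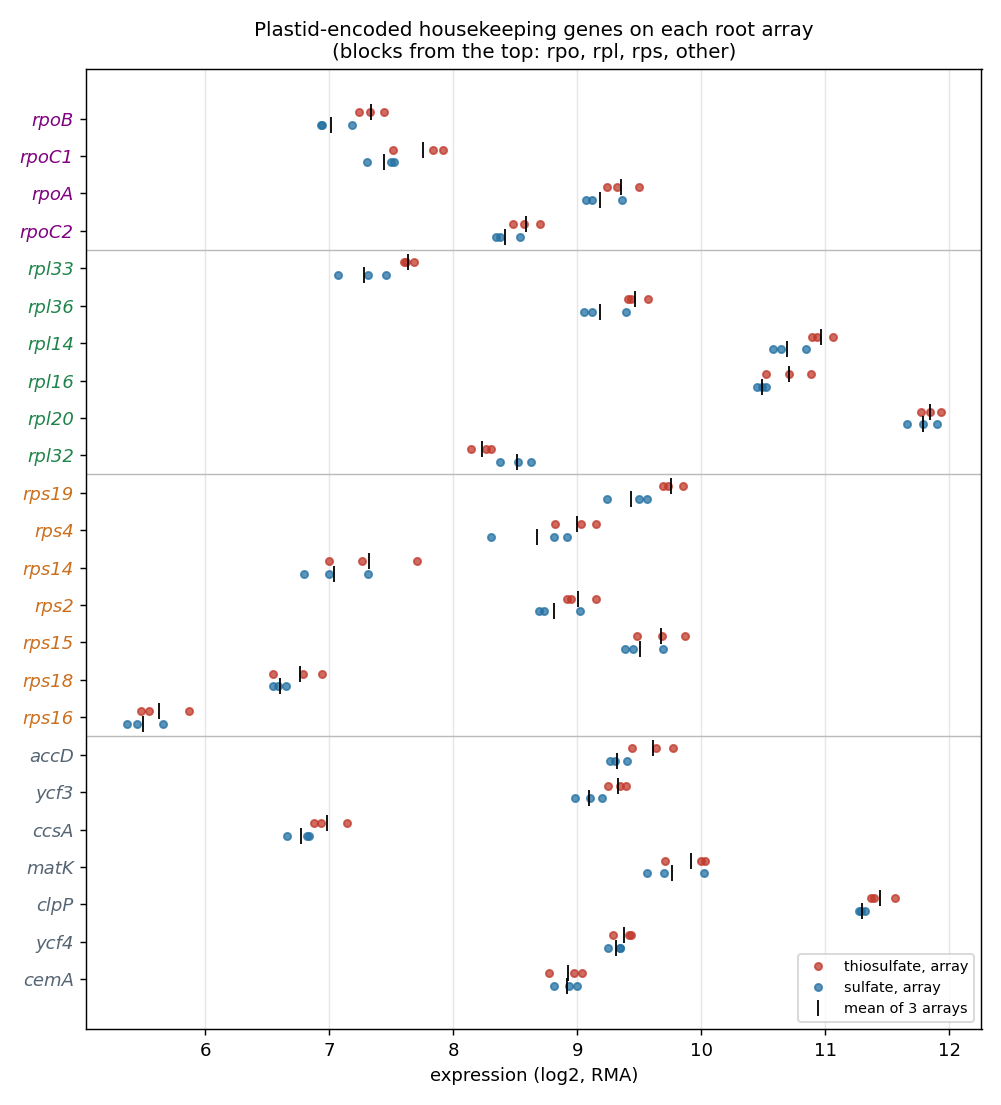
Expression of the 24 plastid-encoded housekeeping genes (log2, horizontal axis) on each array, with thiosulfate in red above sulfate in blue for each gene and black bars at the means of 3 arrays. The values run from 5.37 (rps16) to 11.93 (rpl20), and rpl32 is the gene whose sulfate points all lie to the right of its thiosulfate points.

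The genes were bright on these arrays. Their means over the 6 arrays ran from 5.56 for rps16 to 11.81 for rpl20, and 88.2% of the genes tested had a lower mean than rps16. Probe sets differ in response, so these values do not rank the transcripts by abundance. Within a group of 3 arrays the SD of a gene had a median of 0.13 and ran from 0.024 (clpP in sulfate) to 0.36 (rps14 in thiosulfate).

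The polymerase genes all had higher means in thiosulfate, with a median difference of 0.24 over the 4. The gene rpoB, for the beta subunit that forms much of the catalytic centre, stood at 7.33, 7.44 and 7.24 in thiosulfate against 7.18, 6.94 and 6.93 in sulfate. Its groups did not overlap, and the difference was 0.32 (SE 0.15, 95% interval -0.009 to 0.65, limma adjusted p = 0.51). Its neighbour rpoC1, for the beta-prime subunit, was measured at 7.84, 7.51 and 7.92 in thiosulfate against 7.50, 7.52 and 7.30 in sulfate. Thiosulfate replicate 2 lay within the sulfate range, and the difference of 0.32 had a limma adjusted p of 0.56. The third gene of this cluster, rpoC2, for the beta-double-prime subunit, had 8.70, 8.57 and 8.48 in thiosulfate against 8.54, 8.38 and 8.34 in sulfate, a difference of 0.16 (95% interval -0.16 to 0.48) that was 0.11 without thiosulfate replicate 1.

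Apart from this cluster, rpoA, for the alpha subunit on which the enzyme assembles, lies at the end of the large ribosomal protein cluster. It stood at 9.50, 9.32 and 9.24 in thiosulfate against 9.36, 9.12 and 9.07 in sulfate. Here too the groups overlapped through sulfate replicate 1, and the difference was 0.17 (95% interval -0.17 to 0.52), with 0.10 without thiosulfate replicate 1, 0.26 without sulfate replicate 1 and 0.11 without sulfate replicate 3. The intervals of the 4 polymerase genes overlap widely, and differences between them were not tested.

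Of the large-subunit ribosomal protein genes 5 had higher means in thiosulfate and 1 a lower mean. The gene rpl33, which in tobacco is dispensable in normal growth but needed to recover from chilling, had 7.62, 7.60 and 7.68 in thiosulfate against 7.46, 7.31 and 7.07 in sulfate. Its thiosulfate values lay close together and above all sulfate values. With a difference of 0.35 (SE 0.15, 95% interval 0.011 to 0.70, 1.28-fold) it was the largest of the 24, with a limma unadjusted p of 0.044 and an adjusted p of 0.48. By its p-value it stood at place 1512 among all genes tested.

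A run of ribosomal protein genes ordered much as in bacteria, the rpl23 cluster, contributed rps19, rpl16, rpl14 and rpl36 beside rpoA. The gene rpl36, for one of the smallest ribosomal proteins, had 9.57, 9.41 and 9.43 in thiosulfate against 9.39, 9.12 and 9.05 in sulfate. For rpl14, whose bacterial counterpart lies at the interface of the subunits, the values were 11.06, 10.93 and 10.89 in thiosulfate against 10.84, 10.64 and 10.58 in sulfate. In both, the lowest thiosulfate array stayed just above sulfate replicate 1; the differences were 0.28 and 0.27, with limma adjusted p of 0.57 for each. The gene rpl16, whose bacterial counterpart lies near the site where transfer RNA enters the ribosome, had 10.88, 10.52 and 10.71 in thiosulfate against 10.52, 10.49 and 10.45 in sulfate, a difference of 0.22 (95% interval -0.12 to 0.55) that was 0.13 without thiosulfate replicate 1. Thiosulfate replicate 2 and sulfate replicate 1 of rpl16 both round to 10.52, so its groups were barely apart. Over the 5 genes of the cluster the differences lay between 0.17 and 0.32. Of these 5, 4 did not overlap between groups, with thiosulfate higher, beside 7.11% of all genes and 11.1% of the equally bright genes outside the plastid.

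The gene rpl20, for a protein that in bacteria binds ribosomal RNA early in assembly, was the brightest of the 24 and differed little. It had 11.93, 11.84 and 11.77 in thiosulfate against 11.90, 11.66 and 11.79 in sulfate, a difference of 0.06 (95% interval -0.26 to 0.38). Its sign turned to -0.0096 when arrays were centred on their medians, and to -0.00082 without sulfate replicate 2. It was 0.02 without thiosulfate replicate 1, 0.10 without thiosulfate replicate 3 and 0.12 without sulfate replicate 1.

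The exception was rpl32, for a small protein of the large subunit. It stood at 8.26, 8.30 and 8.14 in thiosulfate against 8.38, 8.52 and 8.63 in sulfate. All 3 thiosulfate arrays were below all 3 sulfate arrays, the reverse of rpl33, rpl36, rpl14 and rpl16, while rpl20 overlapped. The difference was -0.28 (SE 0.14, 95% interval -0.60 to 0.04, 1.21-fold higher in sulfate), with a limma unadjusted p of 0.083 and an adjusted p of 0.56. It kept this sign under the other scalings, with array weights and whichever array was left out, at -0.35 to -0.22. The remaining alternative settings could not move a difference. Its unadjusted limma p ran from 0.023 to 0.22 over all 14 alternative settings. Its neighbour ccsA, which encodes a protein that attaches heme to cytochromes in the thylakoid lumen, had 6.88, 7.14 and 6.93 in thiosulfate against 6.82, 6.84 and 6.66 in sulfate, a difference of 0.21 (95% interval -0.12 to 0.54) that was 0.13 without thiosulfate replicate 2. The difference of rpl32 lay 0.49 below that of ccsA and 0.55 below the median of the other rpl genes. These gaps are descriptions of genes singled out after their values were seen.

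**Figure D2:**
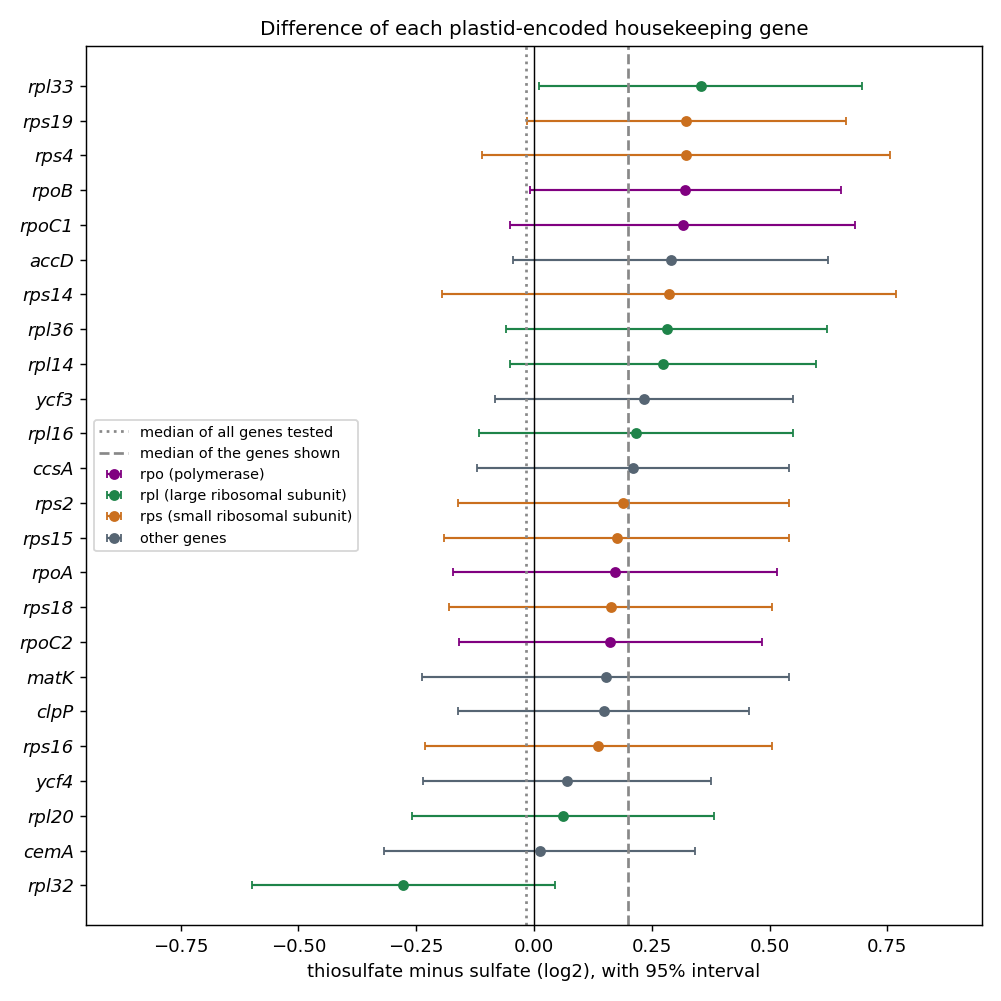
Thiosulfate minus sulfate difference (log2) of each of the 24 genes with its 95% interval, ordered from the highest to the lowest and coloured by group; the dotted line is the median of all genes tested (-0.016) and the dashed line that of the 24 genes (0.20). The points run from 0.35 (rpl33) to -0.28 (rpl32), and only the interval of rpl33 leaves out 0.

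All 7 small-subunit genes had higher means in thiosulfate, with differences between 0.14 and 0.32 and a median of 0.19. The gene rps19, whose bacterial counterpart lies in the head of the small subunit, had 9.85, 9.69 and 9.73 in thiosulfate against 9.56, 9.50 and 9.24 in sulfate. It was the 1 rps gene whose groups did not overlap; the difference was 0.32 (SE 0.15, 95% interval -0.015 to 0.66, limma adjusted p = 0.51). The gene rps4, for a protein that in bacteria helps to start small-subunit assembly, had an equal difference of 0.32 with a wider interval (-0.11 to 0.76). Its values were 9.15, 8.82 and 9.03 in thiosulfate against 8.81, 8.92 and 8.30 in sulfate, so sulfate replicate 3 stood apart below the rest. Without that array the difference was 0.14.

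The gene rps14, which follows the photosystem genes psaA and psaB in their joint transcript, varied most. It had 7.00, 7.26 and 7.71 in thiosulfate against 6.80, 7.31 and 7.00 in sulfate, a difference of 0.29 (95% interval -0.20 to 0.77). Thiosulfate replicate 3 was high, and without it the difference was 0.09; it was 0.45 without thiosulfate replicate 1 and 0.17 without sulfate replicate 1. The other 4 genes (rps2, rps15, rps16 and rps18) had differences of 0.19, 0.18, 0.14 and 0.16, with overlapping groups and limma adjusted p between 0.73 and 0.83. Single arrays weighed on all 4. Without thiosulfate replicate 1 the difference was 0.12 for rps2, 0.08 for rps15 and 0.07 for rps18. Without thiosulfate replicate 2 it was 0.02 for rps16 and 0.27 for rps18. Over all fits with 1 array left out it ran from 0.12 to 0.29 for rps2, from 0.08 to 0.27 for rps15 and from 0.02 to 0.22 for rps16. For rps16 a nuclear gene also supplies the plastid protein, and this row was the dimmest of the 24, at 5.63 ± 0.21 in thiosulfate and 5.49 ± 0.15 in sulfate (SD, n = 3 each).

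Among the 7 remaining genes the median difference was 0.15. The gene accD, for a subunit of the acetyl-CoA carboxylase that starts fatty acid synthesis, had 9.77, 9.63 and 9.44 in thiosulfate against 9.40, 9.30 and 9.26 in sulfate. Its groups were apart by a narrow gap, and the difference of 0.29 was the largest of this group (95% interval -0.04 to 0.62, limma adjusted p = 0.56). The gene ycf3, for an assembly factor of photosystem I, had 9.34, 9.25 and 9.39 in thiosulfate against 9.10, 9.20 and 8.98 in sulfate, a difference of 0.23 (95% interval -0.08 to 0.55). The gene clpP, for the catalytic subunit of the plastid Clp protease, had 11.56, 11.39 and 11.37 in thiosulfate against 11.32, 11.29 and 11.27 in sulfate. Its sulfate arrays agreed closely, and the groups did not overlap although the difference was only 0.15 (95% interval -0.16 to 0.46), and 0.09 without thiosulfate replicate 1.

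The gene matK, for a maturase that splices plastid introns, had a difference of 0.15 with overlapping groups (9.91 ± 0.17 in thiosulfate and 9.76 ± 0.24 in sulfate, SD, n = 3 each). It was 0.28 without sulfate replicate 1, 0.05 without sulfate replicate 2, 0.10 without thiosulfate replicate 1 and 0.25 without thiosulfate replicate 3. For ycf4, another assembly factor of photosystem I, the difference was 0.07 (95% interval -0.24 to 0.38), with 0.05 without thiosulfate replicate 1, 0.11 without thiosulfate replicate 3 and 0.04 without sulfate replicate 3. For cemA, for a protein of the inner envelope membrane, it was 0.01 (95% interval -0.32 to 0.34), and between -0.05 and 0.09 whichever array was left out. The sign of ycf4 turned under both other scalings, and that of cemA under both and without thiosulfate replicate 1, thiosulfate replicate 2 or sulfate replicate 2. The genes accD, ycf4 and cemA lie in this order on the genome with psaI between accD and ycf4, so the differences within this stretch ran from 0.29 down to 0.01.

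**Figure D3:**
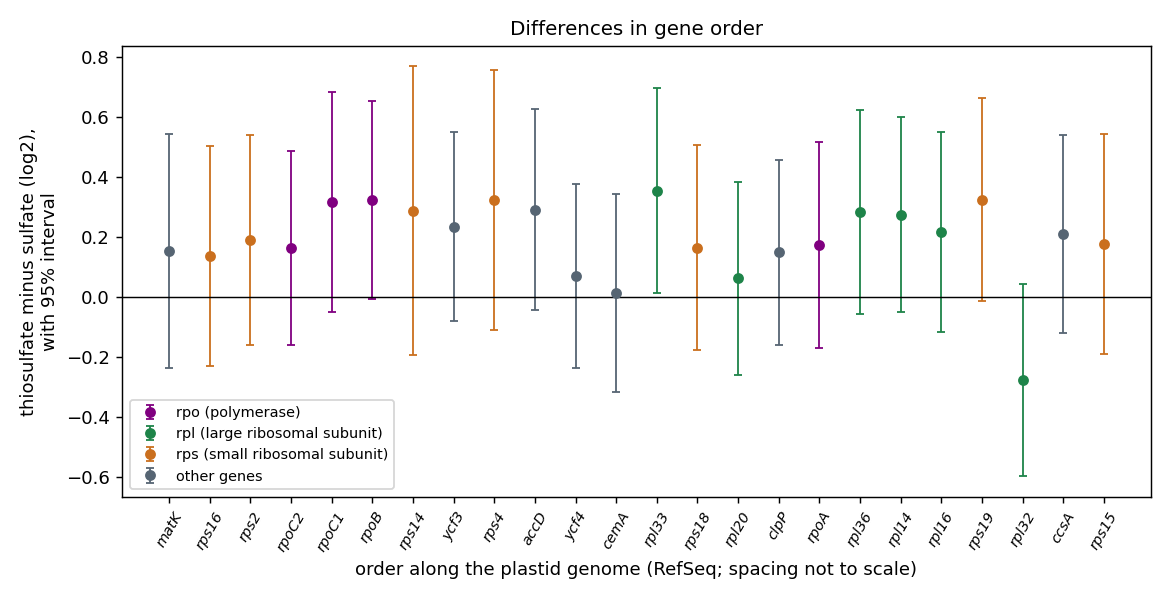
Thiosulfate minus sulfate difference (log2, with 95% interval) of the 24 genes in their order along the plastid genome, evenly spaced and coloured by group. The run from rpoA to rps19 lies between 0.17 and 0.32, and rpl32 (-0.28) stands beside ccsA (0.21).

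By group, the median differences were 0.24 for rpo, 0.25 for rpl (0.27 without rpl32), 0.19 for rps and 0.15 for the others. After a further quantile normalization the medians were 0.17 for rpo, 0.20 for rpl and 0.12 for rps, and with arrays centred on their medians 0.17, 0.17 and 0.12 in the same order. Differences between the groups were not tested. The 39 plastid-encoded photosynthesis and NDH genes measured alone on their rows had a median of 0.28 and a range of -0.06 to 0.46; 36 had a higher mean in thiosulfate and 10 had an unadjusted limma p under 0.05, with none past the adjustment. That count of 10 stands beside 10.0% of all genes and depended on the setting: it was 0 with arrays centred on their medians, 1 after a further quantile normalization, 0 without thiosulfate replicate 1 or sulfate replicate 3, 4 without thiosulfate replicate 3, 6 with the replicate block or with all rows tested, and 22 with a variance prior that follows intensity. A set of 16 genes that carry mitochondrial names in the array's annotation (nad, cox, ccb, atp1 and matR) had a median of 0.04 and a range of -0.07 to 0.15. The 1887 genes not encoded in the plastid and with means within the range of the 24, dimmer as a set, had a median of 0.03. Of them 55.8% had a higher mean in thiosulfate.

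**Figure D4:**
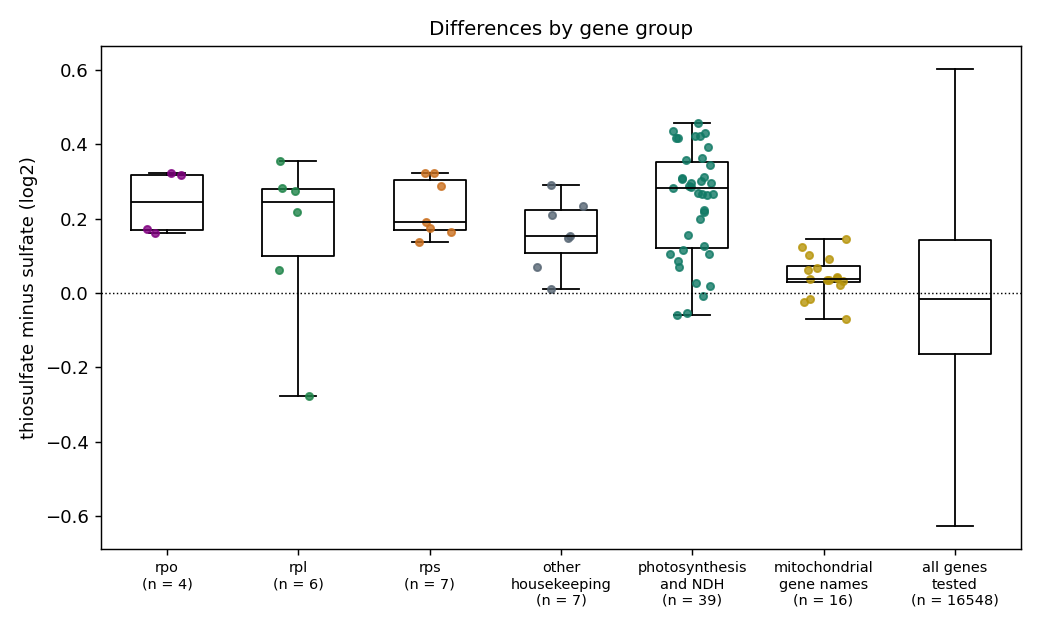
Thiosulfate minus sulfate differences (log2) by gene group, with a point per gene; boxes show quartiles and medians, and whiskers reach the lowest and highest gene except for all genes tested, where they reach 1.5 box lengths at most and no points are drawn. The plastid groups have medians from 0.15 to 0.28, the genes with mitochondrial names 0.04 and all genes tested -0.016.

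The genes varied together between arrays of one group as well. In thiosulfate, replicate 1 held the highest value for 16 of the 24 genes. In sulfate, replicate 1 held the highest value for 17 and replicate 3 the lowest for 16. Expressed as the median deviation of the 24 genes from their own means over the 6 arrays, the thiosulfate arrays lay at 0.19, 0.07 and 0.05 and the sulfate arrays at 0.005, -0.12 and -0.19. The groups of arrays did not overlap, but sulfate replicate 1 was nearer to thiosulfate replicate 3 than to either other sulfate array. For the rpo genes alone, thiosulfate replicate 3 and sulfate replicate 1 both stood at 0.02. The photosynthesis and NDH genes followed the same order in sulfate (-0.04, -0.07 and -0.25), with thiosulfate arrays at 0.19, 0.09 and 0.13, while the genes with mitochondrial names overlapped between groups. The cause of this spread among arrays of a group was not tested.

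**Figure D5:**
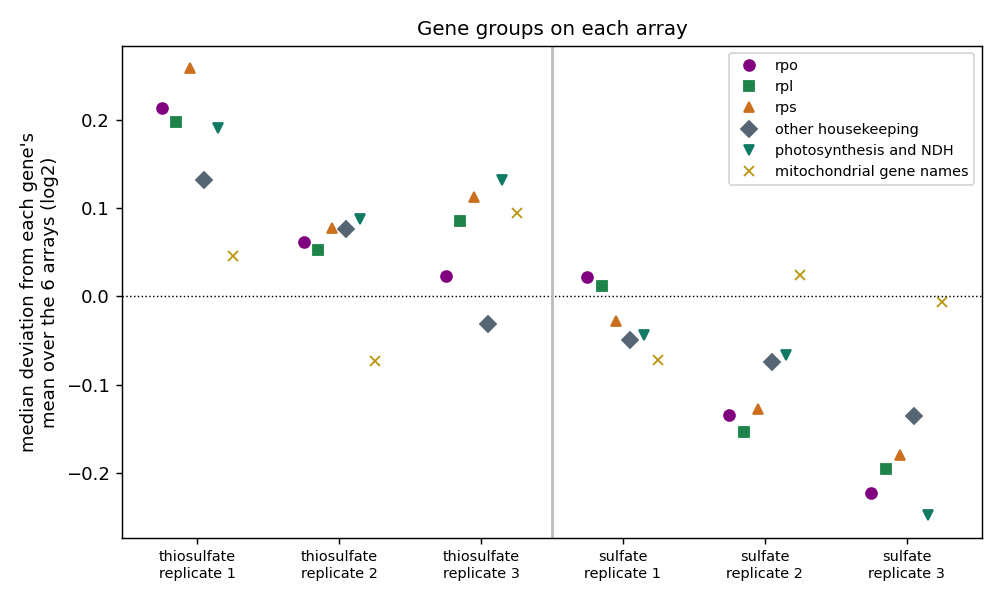
Median deviation of each gene group (log2) from the genes' own means over the 6 arrays, by array, thiosulfate arrays on the left. The plastid groups lie highest on thiosulfate replicate 1 and lowest on sulfate replicate 3, and the genes with mitochondrial names show no such order.

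Whichever array was left out, the differences of 9 genes (accD, rpl14, rpl32, rpl33, rpl36, rpoB, rpoC1, rps19 and ycf3) moved by at most 1.5 times, while those of the other 15 moved by more for at least 1 array, as given beside each.

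The count of genes at an unadjusted p depended on how variances were shared. The limma fit above shares 1 prior variance over dim and bright genes. With a prior that follows intensity and is robust to outliers, 9 of the 24 had an unadjusted p under 0.05, 8 of them higher in thiosulfate (rps19, rpl14, rpl33, accD, rpoB, rpl36, rpoC1 and ycf3) and rpl32 lower. The shares over all genes in that fit were 10.2% in both directions, 5.55% higher and 4.66% lower. Of the genes not encoded in the plastid with means within the range of the 24, dimmer as a set, 15.4% passed. No gene of the 24 passed the adjustment there either, with the smallest adjusted p at 0.31 (rps19). Leaving out 1 array moved the count at an unadjusted p between 0 and 3: none passed without thiosulfate replicate 1, sulfate replicate 2 or sulfate replicate 3, rpoC1 alone without thiosulfate replicate 2, accD alone without thiosulfate replicate 3, and rpl33, rpl36 and rpoB without sulfate replicate 1. Between 7.17% and 10.6% of all genes passed in these fits.

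Few nuclear genes that work with these could be examined. Of 41 listed nuclear genes for plastid ribosomal proteins 10 were measured, all dim (means between 1.27 and 4.13); 6 had higher means in thiosulfate and 4 lower, with a median of 0.06, and none passed the adjustment. The 3 with the smallest p were PRPL34 (AT1G29070), PRPL19.1 (AT5G47190) and PRPS10 (AT3G13120). PRPL34 had 2.93, 2.68 and 2.73 in thiosulfate against 2.35, 2.14 and 1.91 in sulfate, a difference of 0.65 with groups apart (95% interval 0.28 to 1.01, limma adjusted p = 0.31). The differences of PRPL19.1 and PRPS10 were 0.51 (95% interval -0.04 to 1.05) and -0.31 (-0.72 to 0.09). The groups of PRPS10 were also apart, with thiosulfate lower. Thus 1 of the 10 separated in each direction, beside 7.11% of all genes with thiosulfate higher and 7.57% with it lower. Of the 3 phage-type polymerases RPOTmp (AT5G15700), which serves mitochondria and plastids, was measured and had a difference of 0.05 (95% interval -0.28 to 0.37). Of the 20 listed partners of ClpP, AccD, Ycf1 and Ycf2, the Clp core subunits CLPP4 and CLPR3 were measured, with differences of 0.23 (95% interval -0.25 to 0.72) and -0.27 (-0.66 to 0.13). The 6 sigma factors, which direct the bacterial-type polymerase to promoters, and its 13 listed associated proteins were not analysed here.

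Of 19 listed green tissue markers, RCA (Rubisco activase) and LHCB4.1 (a light-harvesting protein) were measured, neither at 0, and both had lower means in thiosulfate (differences -0.09 and -0.21, with overlapping groups). The values of these 2 markers summed on the linear scale ran from 17.1 to 26.5 over the thiosulfate arrays and from 21.7 to 24.1 over the sulfate arrays. Of 11 root markers, the root hair expansins EXPA7 and EXPA18 were measured, with differences of 0.25 and 0.31; their linear sums overlapped (from 11.7 to 18.6 over the thiosulfate arrays, against 9.13 to 15.2 over the sulfate arrays) and were highest on replicate 1 of each group, as the plastid genes were. The part of this in the plastid genes' spread was not tested. Both root markers were dim, with means of 2.51 and 2.74 over the arrays beside a median of 2.36 over all genes tested. Array medians over all rows ran from 2.41 to 2.48 for thiosulfate and from 2.35 to 2.38 for sulfate.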

How the data were processed

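Gene expression was measured on 6 one-colour Affymetrix arrays of root RNA, grouped by sample title. The deposited values are log2 expression per transcript cluster; per the submitters' processing notes the authors made them with RMA in Transcriptome Analysis Console 4.0. Of the RMA variant, array build, filters, slides and scan dates the sources used here give nothing, so no batch was tested and no background or saturation flag was used. Precision is limited by the number of arrays, since they have no read depth.

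Rows were named through the platform's annotation: 16722 of 38408 rows list 1 gene, of which 16574 matched a RefSeq table (assembly TAIR10.1) used for names and gene order only. The brightest row per gene gave 16548 genes. Plastid genes present in 2 copies share rows that list both, and were left out of the 24. Mitochondrial genes kept the annotation's names, as their identifiers did not match.

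Thiosulfate minus sulfate was fitted with limma 3.58.1 in R 4.3.3 over all genes (two-sided, Benjamini-Hochberg adjustment, threshold 0.05); the fit was tested on simulated data. Groups of genes were described by counts and medians, with no list test. The members, lists and clusters were chosen with earlier results of these data known. Genes of the other lists were named when a list had at most 5 measured genes, otherwise the 3 with the smallest p. Alternatives were other scalings, a filter on dim genes, averaged rows, all rows, another variance prior, weights per array, a block for the replicate number and fits that left out 1 array. Both groups share replicate numbers in their titles. Over all genes tested, deviations of same-numbered arrays correlated at 0.056, -0.025 and -0.032, so the main fit did not pair them. The 24 genes did share an order by number. Their median deviations from the group means were 0.098, -0.029 and -0.066 in thiosulfate and 0.122, -0.029 and -0.083 in sulfate. Whether the numbers mark pairs was not tested for these genes. Tables and plots used Python 3.11.15, pandas 2.3.3 and matplotlib 3.10.9.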

Additional observations from a re-analysis of the deposited data

How the results depend on the processing

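In all 14 alternatives 0 of the 24 plastid genes passed a limma adjusted p of 0.05 (adjusted p 0.31 to 0.9996). The dim-gene filter, averaged rows, all rows, the other variance prior and the replicate block could alter p-values but not a difference of the 24. The median differences of the rpo, rpl and rps groups stayed above 0 in each of the rest, but that of rps, 0.19, was 0.117 after quantile normalization and 0.119 after centring. That of all 24 was 0.20, and 0.13 both after a further quantile normalization (0.132) and with arrays centred on their medians (0.129), where 21 and 20 genes had higher means and rpl32 replaced rpl33 as the 1 gene at an unadjusted p under 0.05. The median of all genes tested was then -0.047 and -0.087. The recomputed gene values counted next include those of the settings that could not move a difference. Of 336 gene values recomputed, 9 turned sign: cemA (-0.083 after quantile normalization, -0.059 after centring, -0.045 and -0.010 without thiosulfate replicates 1 and 2, -0.040 without sulfate replicate 2; -0.045 to 0.091 over the fits with 1 array left out), ycf4 (-0.029 and -0.0016 under the same scalings) and rpl20 (-0.0096 after centring, -0.00082 without sulfate replicate 2; -0.00082 to 0.12 with 1 array left out). With the intensity trend 9 of the 24 had an unadjusted p under 0.05, and with all rows tested 0 did. With the replicate block 0 did and 0 of all genes passed the adjustment by limma, against 2 (1717 at an unadjusted p under 0.05). The block also took the count of photosynthesis and NDH genes at an unadjusted p under 0.05 from 10 to 6. Over all genes tested, 2 of 6 arrays correlated best with their own number. All rows tested gave 0 past the adjustment (3502 rows at an unadjusted p under 0.05). Leaving out 1 array gave 0 to 2 genes past the adjustment, 0 to 3 of the 24 at an unadjusted p under 0.05, and medians of the 24 from 0.15 to 0.25. The causes were not tested.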

Other observations

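Plastid genes whose rows list 2 gene identifiers under 1 symbol stood outside the comparison. They gave 7 distinct rows for 6 symbols (rpl2, rpl23, rps7, rps12, ycf1 and ycf2). All 7 had higher means in thiosulfate, with differences of 0.05 to 0.33 and a median of 0.25 on the log2 scale. Groups did not overlap for 3 of them, beside 14.7% of all genes tested, and none had an unadjusted limma p under 0.05 when all rows were tested, beside 9.12% of all rows. With these rows added, an alternative chosen after seeing the data, the medians were 0.21 for all genes, 0.26 for rpl and 0.18 for rps.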
